A study of Mus musculus with 9 samples.

Results

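The genes described here are 10 brakes on mitogen-activated protein (MAP) kinase signalling: the dual-specificity phosphatases Dusp1, Dusp4, Dusp5, Dusp6, Dusp7, Dusp10 and Dusp16, the Sprouty gene Spry2, and the Sprouty-related genes Spred1 and Spred2. They were found by gene name among the 40993 genes of the expression table, where each name had a single row. Of the 10 genes, 9 averaged 1 FPKM or more across the 9 libraries and were tested, and Dusp10 was listed at 0 in every library. FPKM relates the fragments of a gene to the length of its transcript and to the size of the library, so levels of different genes can be set side by side.

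The RNA came from BV2 cells in 9 libraries: 3 non-treated controls, 3 that received 10 µg/ml MNPs@SiO2(RITC) and 3 that received 100 µg/ml, both for 12 h. The labels call the treated groups low dose and high dose and give 0.01 and 0.1 µg/µl, the same doses in another unit. MNPs@SiO2(RITC) are particles with a cobalt ferrite core and a shell of silica, which is labelled with the fluorescent dye rhodamine B isothiocyanate. BV2 is a mouse microglial line that was immortalised with a retrovirus carrying oncogenes, and all 3 groups share that background, so the levels in control cells are those of a transformed line. Nothing in the labels says whether the 3 libraries of a group came from separate cultures, so the p-values measure only the spread between these libraries. In bulk RNA, fewer cells with a transcript and less transcript per cell cannot be told apart.

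As background, MAP kinases are switched on by phosphorylation of a threonine and a tyrosine in their activation loop, and the dual-specificity phosphatases remove both phosphates. Members of the family differ in where they sit in the cell and in which kinase they prefer. Dusp1, Dusp4 and Dusp5 are nuclear, and Dusp5 acts on ERK alone. Dusp6 and Dusp7 are cytoplasmic and also prefer ERK, while Dusp10 and Dusp16 act on the stress kinases JNK and p38. Sprouty and Spred proteins work further upstream, between receptor tyrosine kinases and Ras, and Spred proteins hold the Ras inhibitor neurofibromin at the membrane. Many of these genes are transcribed in response to the kinases they inhibit, so that they form negative feedback loops. In microglia, ERK, JNK and p38 carry signals from growth factor and Toll-like receptors.

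The libraries held 10 of 12 microglial markers at a mean of 1 FPKM or more, and the summed FPKM of these markers ran from 1278 to 1467 in control cells, from 1286 to 1373 at 10 µg/ml and from 1204 to 1373 at 100 µg/ml. Cd68, a lysosomal protein of phagocytes, had a mean of 413.3 FPKM, while P2ry12 and Cx3cr1, receptors of homeostatic microglia, were near 0 at 0.0934 and 0.0368 FPKM. None of the 6 markers each of astrocytes, neurons, oligodendrocytes and fibroblasts reached a mean of 1 FPKM, and the highest sum of any of these lists in a library was 1.44 FPKM. FPKM carries no depth of its own, and from the steps between low values the libraries were estimated at 12.16 to 15.08 M (mega) fragments. This is approximate. The depth was chosen to bring low values near whole fragments, and 65.5% of 4470 low values then lay within 0.25 of one. Evenly spread values would also often lie that close, so the estimate is weak. High dose replicate 1 had the largest estimated depth and the largest sum of FPKM. Without it, 539 genes in place of 236 passed the threshold between 100 µg/ml and control. A listed 0 can be a failed estimate here, because 9 genes exceeded 1000 FPKM in part of the libraries while being listed at 0 elsewhere.

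The sequences upstream of 3 of the genes are shown here because immediate-early feedback genes are known for compact response elements close to their start. RefSeq promoter windows on GRCm38.p6 matched 9 of the 10 genes, all but Dusp4. The 3 stretches below run 5′ to 3′ on the strand of the gene, from 150 to 51 bases before the RefSeq start, and all lie outside the gene as listed in the expression table. Capitals mark matches to the motifs searched. Dusp5 is shown for its CArG boxes, the core of the serum response element that binds serum response factor. Dusp1 is shown for its cAMP response element (CRE) and E-box, and Dusp6 as an ERK phosphatase with no match.
Dusp5, chr19:53528995-53529094, plus strand: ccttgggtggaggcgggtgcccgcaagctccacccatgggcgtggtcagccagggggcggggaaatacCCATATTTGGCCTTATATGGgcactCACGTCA
Dusp1, chr17:26508523-26508622, minus strand: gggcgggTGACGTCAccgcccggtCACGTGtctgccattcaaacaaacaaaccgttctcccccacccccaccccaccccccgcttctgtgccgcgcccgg
Dusp6, chr10:99263081-99263180, plus strand: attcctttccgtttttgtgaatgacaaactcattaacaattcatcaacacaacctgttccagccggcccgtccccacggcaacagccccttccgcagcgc

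Dusp5 had a pair of CArG boxes that lie end to end, at positions -82 to -73 and -72 to -63. A CArG box, here CC and GG around 6 bases that are each A or T, was found on either strand in the 250 bases before the start in 482 of 32851 mouse promoter windows (1.467%), and in none of the other 8 genes matched. Boxes placed end to end occurred in 2 of the 32851 windows (0.0061%). The CRE, TGACGTCA, was in 1.546% of windows and among these genes only in Dusp1, at -143 to -136. Its shorter core, TGACG, which overlaps it, was in 17.765% of windows and in Dusp1, Dusp5, Dusp16 and Spred2. The E-box CACGTG, in 6.021% of windows, was found only in Dusp1, at -126 to -121, and the HIF core ACGTG that overlaps it, in 16.572% of windows, was found in Dusp1, Dusp5 and Spred1. None of the 9 genes held the AP-1 site TGANTCA (6.749% of windows), the ETS site CCGGAA (12.03%) or the TATA box TATAAA (12.368%) in this window. Of the tested genes, 86 had a CArG box in the window and 7734 had a window without one, and the rest were matched to no window. At 100 µg/ml against control, 2 of the 86 were higher and 3 lower at an adjusted p under 0.05 in limma. Dusp5 itself is among the 2. Of the 7734, 58 were higher and 108 lower, and of all genes tested 2.11% passed. The median log2 fold change was -0.03 with a box, -0.00221 without and -0.00158 for all genes tested. These matches are a description of the sequence, and no binding was measured.

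**Figure D1:**
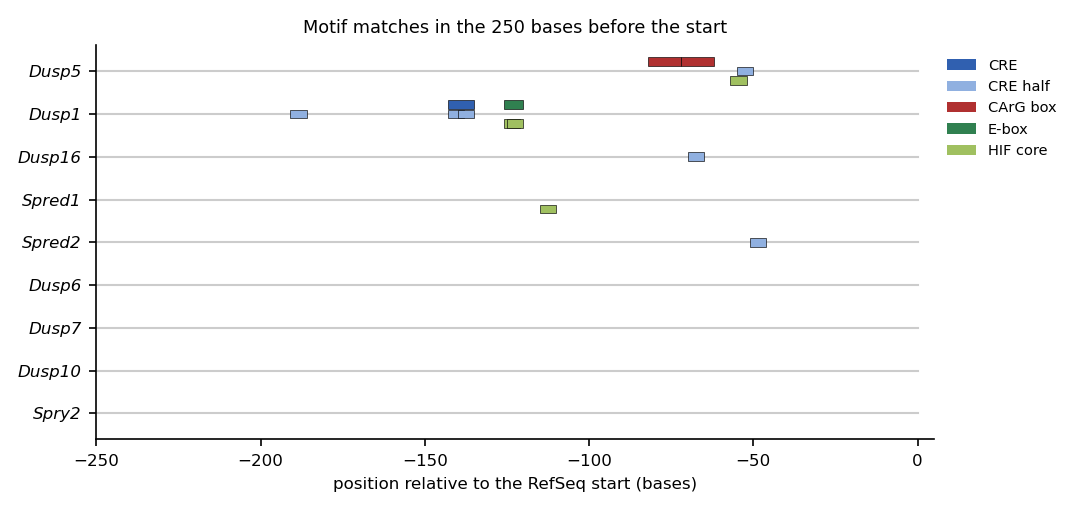
Matches to the motifs in the 250 bases before the RefSeq start of 9 genes, on both strands, with the position relative to the start in bases on the horizontal axis and 1 row per gene. Coloured bars are motif matches, the paired red bars of Dusp5 at -82 to -63 being its CArG boxes, and Dusp6, Dusp7, Dusp10 and Spry2 have no match.

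Dusp5 (ENSMUSG00000034765, chr19:53529109-53542431, plus strand), the nuclear phosphatase specific for ERK, was the single gene of the 9 tested that changed past the threshold, and it rose in 100 µg/ml MNPs@SiO2(RITC)-treated cells. Its FPKM was 5.19, 5.83 and 6.61 in the control libraries, 6.29, 6.46 and 7.04 at 10 µg/ml, and 11.0, 8.97 and 9.79 at 100 µg/ml. All 3 high dose libraries lay above all 6 others, and the low dose libraries overlapped the upper control library. The group means were 5.87 ± 0.713, 6.60 ± 0.395 and 9.93 ± 1.04 FPKM (SD, n = 3 each), and the mean at 100 µg/ml was 1.69 times that of control cells. On the log2(FPKM + 1) scale, where the changes of genes with low FPKM are understated, the difference from control was 0.67 (SE 0.10, 95% interval 0.44 to 0.90, adjusted p = 0.0159 in limma). It was rank 67 of 11161 genes by p. Against 10 µg/ml the difference was 0.52 (95% interval 0.29 to 0.75, adjusted p = 0.0583 in limma), which missed the threshold. Between 10 µg/ml and control it was 0.15 (95% interval -0.08 to 0.38, adjusted p = 1 in limma), 0.08 without control replicate 1 and 0.22 without control replicate 3. The call against control was lost without control replicate 1 (adjusted p = 0.0646 in limma), without control replicate 2 (0.0813), without high dose replicate 3 (0.0641) and in a fit of only the 6 libraries compared (0.0784). Over all alternatives the log2 fold change stayed between 0.60 and 0.76. Dusp5 is estimated to rest on 159 to 411 fragments per library.

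Dusp4 (ENSMUSG00000031530, chr8:34807297-34819894, plus strand), a nuclear phosphatase with activity toward ERK, JNK and p38, was the most abundant of the 10 genes. Its FPKM was 69.3, 71.4 and 72.0 in control cells, 75.5, 79.2 and 74.6 at 10 µg/ml, and 77.9, 86.8 and 86.6 at 100 µg/ml. The libraries of each dose lay above all control libraries, and the doses overlapped each other. The means were 70.9 ± 1.39, 76.4 ± 2.44 and 83.8 ± 5.11 FPKM (SD, n = 3 each). The log2 difference from control was 0.24 at 100 µg/ml (95% interval 0.11 to 0.36, adjusted p = 0.0695 in limma) and 0.11 at 10 µg/ml (95% interval -0.02 to 0.23, adjusted p = 1 in limma), so neither passed. Without high dose replicate 1 the difference at 100 µg/ml was 0.29 and passed (adjusted p = 0.0139 in limma). With 2356 to 3217 estimated fragments per library, Dusp4 had the best counting precision of the nuclear phosphatases.

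Dusp1 (ENSMUSG00000024190, chr17:26505590-26508519, minus strand), also called MKP-1, is an immediate-early gene whose product prefers p38 and JNK. Its FPKM was 5.59, 6.50 and 5.09 in control cells, 5.68, 6.41 and 7.17 at 10 µg/ml, and 8.26, 5.57 and 8.15 at 100 µg/ml. High dose replicates 1 and 3 were the highest of all 9 libraries, but high dose replicate 2 fell inside the control range. The log2 difference of 100 µg/ml from control was 0.30 with a 95% interval of -0.04 to 0.63 (adjusted p = 0.319 in limma). Without high dose replicate 2 it was 0.46 (adjusted p = 0.115 in limma), and without high dose replicate 1 it was 0.21 (adjusted p = 0.467 in limma). Dusp1 had 157 to 288 estimated fragments per library. Its lowest number was too close to that of Dusp5, 159, to order the genes on an approximate depth.

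**Figure D2:**
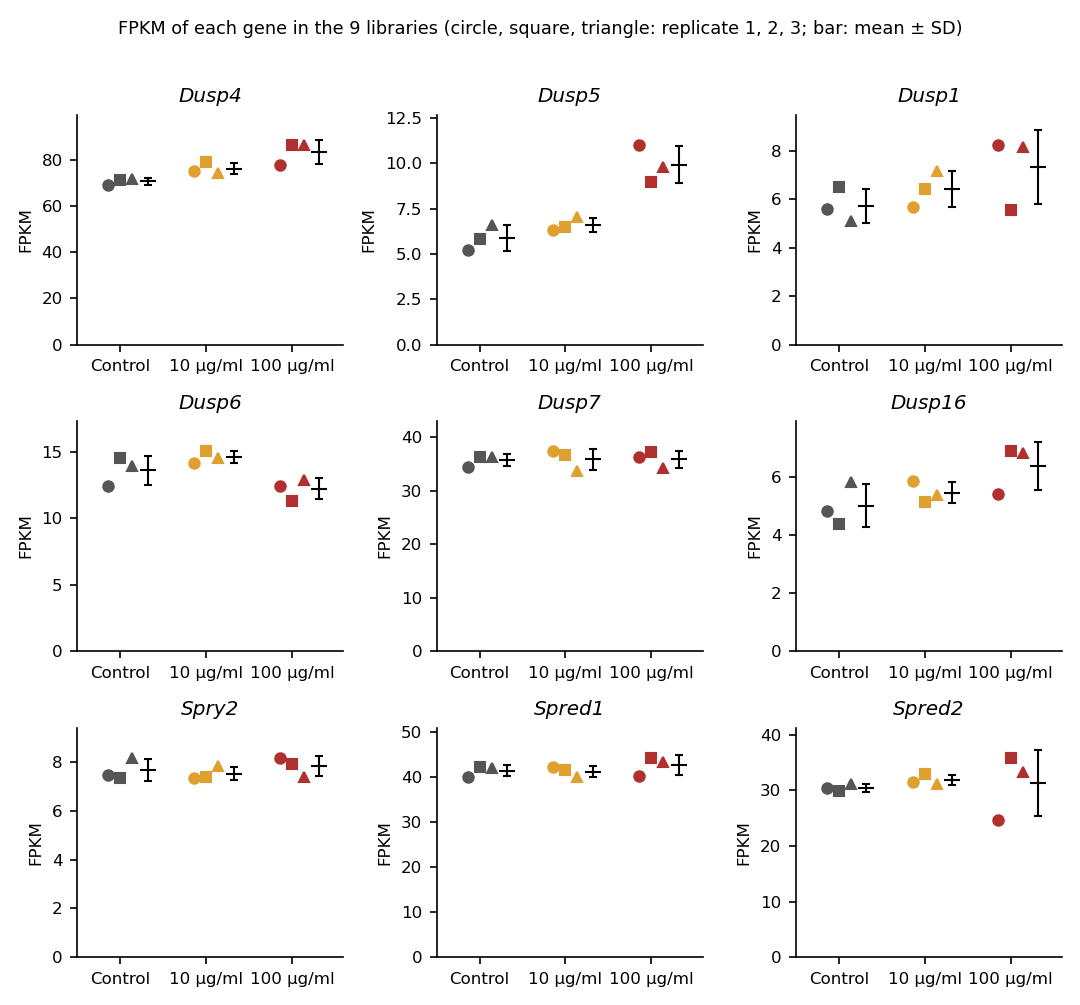
FPKM of the 9 genes above 0 in each library, 1 panel per gene with its own vertical axis from 0, by group (control, 10 µg/ml, 100 µg/ml). Circles, squares and triangles are replicates 1, 2 and 3, and the black bars give the mean ± SD. Dusp5 is separated at 100 µg/ml (8.97 to 11.0 FPKM against 5.19 to 7.04 in the other libraries), Dusp6 is lower there than at 10 µg/ml, and Spred2 has 1 low library at 100 µg/ml.

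Dusp6 (ENSMUSG00000019960, chr10:99263231-99267488, plus strand), the cytoplasmic ERK phosphatase, had a mean below control at 100 µg/ml, where that of Dusp5 was above it. Its FPKM was 12.4, 14.5 and 13.9 in control cells, 14.2, 15.1 and 14.5 at 10 µg/ml, and 12.4, 11.3 and 12.9 at 100 µg/ml. All high dose libraries were below all low dose libraries, and the control libraries overlapped both. The means were 13.6 ± 1.09, 14.6 ± 0.437 and 12.2 ± 0.813 FPKM (SD, n = 3 each). The log2 difference of 100 from 10 µg/ml was -0.24 (95% interval -0.41 to -0.07, adjusted p = 0.193 in limma) and that of 100 µg/ml from control -0.14 (95% interval -0.31 to 0.02, adjusted p = 0.331 in limma). Neither passed the threshold. The difference from control moved with single libraries, from -0.09 without high dose replicate 2 to -0.20 without control replicate 1.

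Dusp7 (ENSMUSG00000053716, chr9:106368632-106375724, plus strand), the close relative of Dusp6 with the same preference, had 34.5, 36.3 and 36.4 FPKM in control cells, 37.4, 36.7 and 33.7 at 10 µg/ml, and 36.3, 37.2 and 34.2 at 100 µg/ml. The 3 groups overlapped fully in this gene. The log2 difference of 100 µg/ml from control was 0.01 with a 95% interval of -0.13 to 0.14 (adjusted p = 0.961 in limma), an interval that leaves out a change as large as that of Dusp5.

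Because Dusp5 and Dusp6 both act on ERK but in different compartments, their FPKM was also divided within each library, a ratio chosen after their values were seen and given without a test. The ratio of Dusp5 to Dusp6 was 0.418, 0.401 and 0.475 in control cells, 0.443, 0.429 and 0.485 at 10 µg/ml, and 0.886, 0.791 and 0.758 at 100 µg/ml. The high dose libraries lay above all others, and the low dose libraries overlapped the controls. The mean ratio was 0.431 ± 0.0385 in control cells and 0.812 ± 0.0666 at 100 µg/ml (SD, n = 3 each). For Dusp4 to Dusp6 the mean ratio was 5.22 ± 0.337 in control cells, 5.24 ± 0.0938 at 10 µg/ml and 6.87 ± 0.717 at 100 µg/ml. A ratio within a library is free of the scaling between libraries and shows only that the genes did not change alike.

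**Figure D3:**
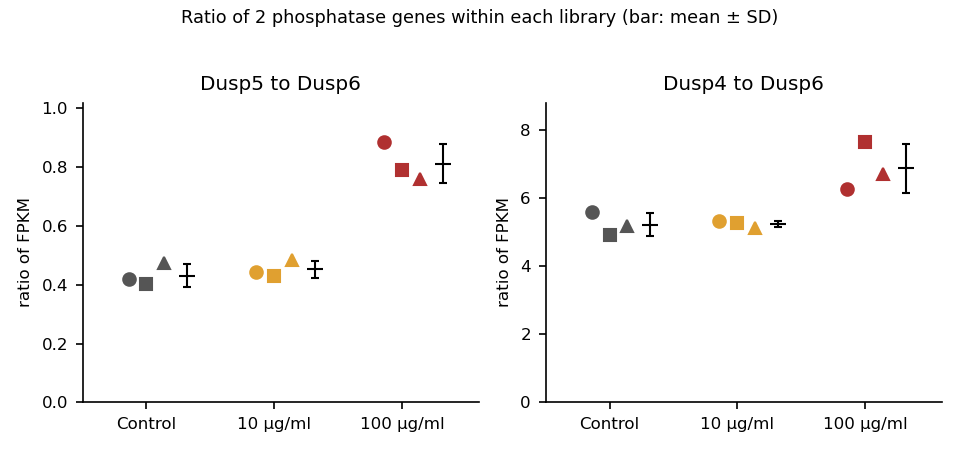
Ratio of FPKM within each library, Dusp5 to Dusp6 on the left and Dusp4 to Dusp6 on the right, by group, with vertical axes from 0. Circles, squares and triangles are replicates 1, 2 and 3 and black bars the mean ± SD, and the Dusp5 to Dusp6 ratio runs from 0.758 to 0.886 at 100 µg/ml and from 0.401 to 0.485 in the 6 other libraries.

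Of the phosphatases of the stress kinases, Dusp16 (ENSMUSG00000030203, chr6:134715473-134792625, minus strand) had 4.82, 4.37 and 5.82 FPKM in control cells, 5.85, 5.13 and 5.37 at 10 µg/ml, and 5.39, 6.88 and 6.82 at 100 µg/ml. High dose replicates 2 and 3 were above all other libraries, and high dose replicate 1 lay within the control range. The log2 difference of 100 µg/ml from control was 0.30 (95% interval 0.03 to 0.56, adjusted p = 0.213 in limma), and 0.39 without high dose replicate 1 (adjusted p = 0.0836 in limma). Dusp10 (ENSMUSG00000039384, chr1:184013302-184075636, plus strand), which acts on the same kinases, was listed at 0 in all 9 libraries, as was the gene 1700056E22Rik that overlaps it on the opposite strand. It was not tested.

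Of the genes that act upstream of Ras, none passed the threshold. Spry2 (ENSMUSG00000022114, chr14:105891949-105896819, minus strand), an inhibitor of signals from receptor tyrosine kinases, had 7.45, 7.32 and 8.16 FPKM in control cells, 7.34, 7.37 and 7.82 at 10 µg/ml, and 8.17, 7.90 and 7.38 at 100 µg/ml. Spred1 (ENSMUSG00000027351, chr2:117121374-117182279, plus strand), a partner of neurofibromin, had 40.0, 42.3 and 41.9 FPKM in control cells, 42.1, 41.5 and 39.9 at 10 µg/ml, and 40.2, 44.3 and 43.4 at 100 µg/ml. The groups overlapped in both genes. The log2 difference of 100 µg/ml from control was 0.03 for Spry2 (95% interval -0.13 to 0.18) and 0.04 for Spred1 (95% interval -0.08 to 0.16), with adjusted p = 0.849 and 0.728 in limma. Without high dose replicate 1 it was 0.00094 for Spry2 and 0.08 for Spred1 (adjusted p = 0.998 and 0.297 in limma).

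Spred2 (ENSMUSG00000045671, chr11:19924375-20024026, plus strand), the other Spred gene, had 30.3, 29.9 and 31.2 FPKM in control cells, 31.4, 32.8 and 31.2 at 10 µg/ml, and 24.6, 35.9 and 33.3 at 100 µg/ml. High dose replicate 1 was the lowest of the 9 libraries and high dose replicates 2 and 3 were the highest, and the SD was 5.90 FPKM at 100 µg/ml against 0.677 in control cells. The log2 difference of 100 µg/ml from control was 0.02 with all libraries (95% interval -0.25 to 0.29, adjusted p = 0.943 in limma) and 0.18 without high dose replicate 1 (adjusted p = 0.0814 in limma). The difference from 10 µg/ml was -0.04 with that library and 0.12 without it (adjusted p = 0.911 and 0.263 in limma). So 1 library decided the direction of Spred2 between the doses.

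**Figure D4:**
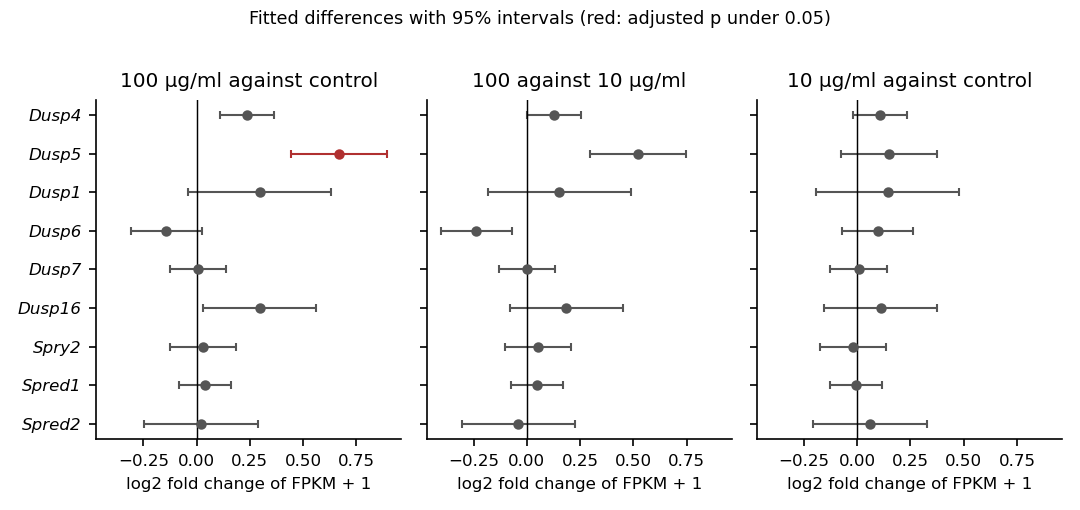
Fitted log2 fold change of FPKM + 1 with its 95% interval for the 9 genes tested, in panels for 100 µg/ml against control, 100 against 10 µg/ml, and 10 µg/ml against control. Dusp5 at 100 µg/ml against control, in red at 0.67, is the single value with an adjusted p under 0.05, and the other genes lie between -0.14 and 0.30 in that panel.

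The counts for the 9 genes are given here beside the shares over all genes tested. Between 100 µg/ml and control, 1 of the 9 genes (Dusp5) passed the adjusted threshold, where 2.11% of 11161 genes did. At an unadjusted p under 0.05 in limma there were 3 (Dusp4, Dusp5 and Dusp16, all higher) against 19.4% of all genes, and the libraries of 2 genes (Dusp4 and Dusp5) did not overlap between groups, against 23.8% of all genes. Between 10 µg/ml and control 0 of the 9 genes passed in limma, as did 0.0% of all genes, and at an unadjusted p under 0.05 there were 0 against 3.28%. At this dose Dusp4 and Spred2 did not overlap with control, both higher, against 10.7% of all genes. For Spred2 the margin was slight, the lowest value at 10 µg/ml being 31.22 FPKM and the highest control value 31.19. Between 100 and 10 µg/ml 0 of the 9 passed in limma against 0.851% of all genes. An unadjusted p under 0.05 was found for 3 (Dusp4 and Dusp5 higher, Dusp6 lower) against 14.3%. There the libraries of Dusp5 and Dusp6 did not overlap, against 19.4% of all genes. A list of 9 genes gives counts too small to set it apart from the background, and nothing particular to it is read from them. The median log2 fold change of the 9 genes was 0.04 at 100 µg/ml against control, 0.10 at 10 µg/ml against control and 0.05 between the doses, beside medians of -0.00158, 0.000151 and 0.000119 for all genes.

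In control cells the FPKM level, which is per length of transcript, fell from Dusp4 (70.9) through Spred1 (41.4), Dusp7 (35.7), Spred2 (30.5), Dusp6 (13.6) and Spry2 (7.64) to Dusp5 (5.87), Dusp1 (5.72) and Dusp16 (5.0). Neighbours in this order did not overlap between their control libraries, except Dusp5 with Dusp1 and Dusp1 with Dusp16, which cannot be ordered. Dusp4 made up 51.4% to 55.4% of the summed FPKM of the Dusp genes listed here in every library. It stood at percentile 93.2 of the genes above 0, and Dusp16 at percentile 53.6. At 100 µg/ml Dusp5, at 9.93 FPKM, was above Spry2, at 7.82 FPKM, the reverse of their order in control cells. Their libraries overlapped in neither group, since the lowest Dusp5 value at 100 µg/ml was 8.97 and the highest Spry2 value 8.17.

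The 3 genes whose pattern over the 9 libraries was most like that of Dusp5 were Isg20l2, an exonuclease of ribosome biogenesis (Pearson r = 0.993), Dhx15, an RNA helicase of splicing (r = 0.988), and Ddx20, a helicase of the SMN complex (r = 0.982). These are the highest of 11161 genes, were picked by r and are a description over libraries that share 3 groups. Ddx20 had 42.5, 42.7 and 45.3 FPKM in control cells and 60.2, 55.6 and 57.7 at 100 µg/ml. Dhx15 had 154.1, 156.8 and 160.2 FPKM in control cells and 171.3, 169.5 and 170.8 at 100 µg/ml. Isg20l2 had 33.3, 33.5 and 35.7 FPKM in control cells and 41.1, 38.2 and 39.8 at 100 µg/ml. In all of them the high dose libraries lay above the controls, and control replicate 3 was the highest control, as in Dusp5.

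Other genes of the pathway, the Ras inhibitor neurofibromin (Nf1) among them, were described from lists. Of 22 genes from the Ras adaptors to ERK, 21 were tested. At 100 µg/ml against control 0 passed the adjusted threshold in limma, against 2.11% of all genes. An unadjusted p under 0.05 was found for 6 of 21, against 19.4% of all genes, and the median log2 fold change was -0.05. The smallest p was that of Shc1, an adaptor that links receptors to Ras. Its FPKM was 54.2, 55.1 and 55.2 in control cells and 48.0, 48.1 and 45.4 at 100 µg/ml, all below control, with a log2 difference of -0.21 (adjusted p = 0.0541 in limma). Of 18 genes of the p38 and JNK branches, 15 were tested and 0 passed in limma at this dose, against 2.11% of all genes. An unadjusted p under 0.05 was found for 3 of 15, against 19.4% of all genes, and the median was -0.03. The smallest p there was that of Rps6ka4, the kinase MSK2 that acts downstream of p38 and ERK, at 0.26 (adjusted p = 0.0571 in limma). At 10 µg/ml against control 0 genes of the p38 and JNK branches passed in limma, as did 0.0% of all genes. An unadjusted p under 0.05 was found for 0 of 15, against 3.28% of all genes, and 15 genes are too few to tell these apart. The smallest p was again that of Rps6ka4 (0.12, adjusted p = 1 in limma). Between the doses 0 genes from the Ras adaptors to ERK and 0 of the p38 and JNK branches passed in limma, against 0.851% of all genes. An unadjusted p under 0.05 was found for 3 of 21 and 4 of 15, against 14.3% of all genes. The smallest p were those of Shc1 (-0.18, adjusted p = 0.136 in limma) and Map2k3, a kinase that activates p38 (0.18, adjusted p = 0.25 in limma).

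Transcripts known to respond to ERK had values on both sides of 0 at 100 µg/ml. Of 19 such genes 12 were tested, with a median log2 fold change of 0.15 at 100 µg/ml against control and 8 of 12 above 0. Over all genes tested the median was -0.00158, with 49.45% above 0. Of the 12, 8 had an unadjusted p under 0.05 against 19.4% of all genes, 6 of them higher and 2 lower. The largest positive values, named after they were seen, were those of the immediate-early genes Ier3 (0.53, adjusted p = 0.0695 in limma) and Ier2 (0.48, adjusted p = 0.0963 in limma), and neither passed. The most negative value was that of Myc (-0.38, adjusted p = 0.0963 in limma), which did not pass either. The adjusted threshold was passed by 1 of 12 in limma against 2.11% of all genes. That gene was Etv5, a transcription factor of the PEA3 group of ETS factors, and it fell. Its FPKM was 22.6, 22.2 and 22.1 in control cells, 21.6, 23.7 and 23.1 at 10 µg/ml, and 16.2, 18.1 and 17.5 at 100 µg/ml. All high dose libraries were below all others, the opposite order from Dusp5. The log2 difference was -0.35 from control (SE 0.06, adjusted p = 0.0212 in limma) and -0.38 from 10 µg/ml (adjusted p = 0.0293 in limma). The call against control was lost without any 1 of the control libraries (adjusted p = 0.0925, 0.0994 and 0.0693 in limma for replicates 1, 2 and 3) and without high dose replicate 3 (0.0741), and with only the 6 libraries compared (0.0894). At 10 µg/ml against control all 12 had a value above 0, beside 50.05% of all genes tested. The median of the 12 was 0.13, beside 0.000151 for all genes, but 0 passed in limma, as did 0.0% of all genes. Of the 12, only Fos had an unadjusted p under 0.05 (0.41, adjusted p = 1), against 3.28% of all genes.

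Of 17 receptors and receptor adaptors that signal to the MAP kinases in microglia, 10 were tested. Their median log2 fold change at 100 µg/ml against control was -0.11, with 2 of 10 above 0. Over all genes tested the median was -0.00158, with 49.45% above 0. Tlr2, the receptor for bacterial lipoproteins, fell and was the 1 gene of the 10 past the threshold, against 2.11% of all genes, with 3 of 10 at an unadjusted p under 0.05 against 19.4% of all genes. Its FPKM was 45.6, 46.8 and 46.3 in control cells, 41.8, 42.8 and 44.1 at 10 µg/ml, and 30.8, 33.0 and 35.6 at 100 µg/ml. The 3 groups did not overlap, with control highest and 100 µg/ml lowest. The log2 difference was -0.47 from control (SE 0.06, adjusted p = 0.00962 in limma) and -0.36 from 10 µg/ml (adjusted p = 0.0326 in limma). The call against control was lost without control replicate 2 (adjusted p = 0.0561 in limma) and with only the 6 libraries compared (0.0692). Between the doses, the calls of both Etv5 and Tlr2 were lost on leaving out any of 8 of the 9 libraries, high dose replicate 1 being the exception. At 10 µg/ml against control 0 of the 10 passed in limma, as did 0.0% of all genes. There was 1 with an unadjusted p under 0.05, against 3.28% of all genes (Csf2ra, a receptor chain for GM-CSF, 0.16, adjusted p = 1).

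Among the other phosphatases, Sprouty and Spred genes no tested gene passed the threshold. Of 14, 8 were tested and 0 passed in limma in any of the comparisons. The shares of all genes that passed were 2.11% at 100 µg/ml against control, 0.0% at 10 µg/ml against control and 0.851% between the doses. In the same order, 2, 2 and 0 of the 8 had an unadjusted p under 0.05, against 19.4%, 3.28% and 14.3% of all genes. Dusp2, an inducible nuclear phosphatase of immune cells, had the smallest p against control at both doses. Its FPKM was 11.5, 10.8 and 11.1 in control cells, 13.6, 12.7 and 15.1 at 10 µg/ml, and 17.0, 13.1 and 14.5 at 100 µg/ml. The libraries of each dose lay above all controls. The log2 difference from control was 0.38 at 100 µg/ml (adjusted p = 0.0851 in limma) and 0.28 at 10 µg/ml (adjusted p = 1 in limma), so neither passed. Dusp3 had the smallest p between the doses, at 0.15 (adjusted p = 0.362 in limma). Genes of this list under the filter were not tested, Spry1 being the nearest to it with a mean of 0.925 FPKM. Named after its values were seen, it had 1.17, 1.30 and 1.26 FPKM at 100 µg/ml. The highest of its other libraries was 1.04. Of all genes tested, 23.8% did not overlap between 100 µg/ml and control.

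**Figure D5:**
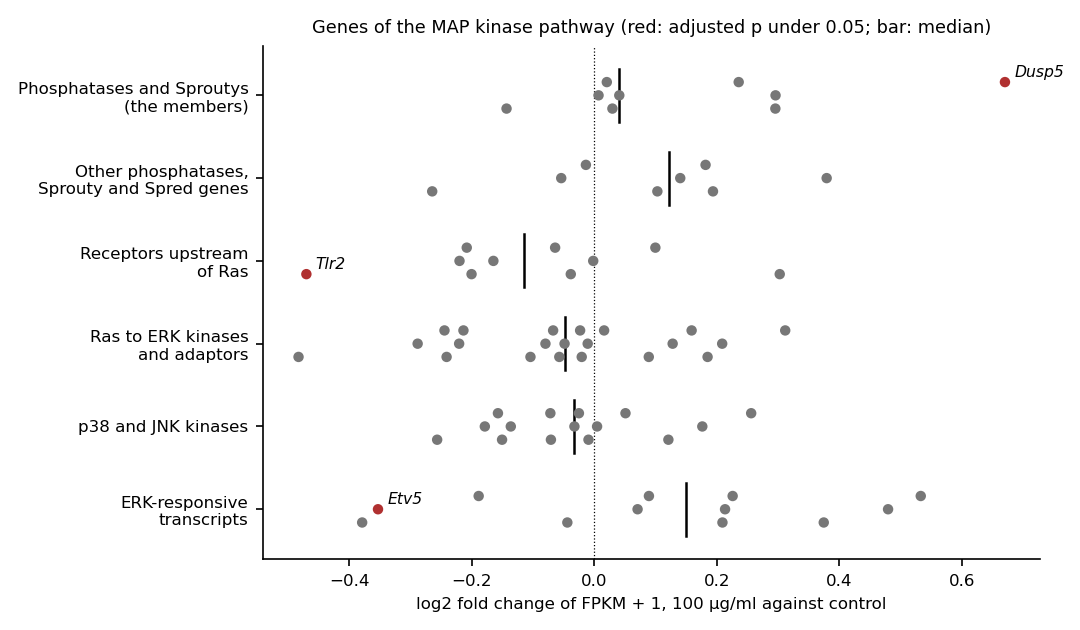
Log2 fold change of FPKM + 1 at 100 µg/ml against control for each tested gene of 6 lists, 1 row per list, points spread vertically only for legibility. Red points have an adjusted p under 0.05 (Dusp5 at 0.67, Etv5 at -0.35, Tlr2 at -0.47) and black bars are list medians, from -0.11 for the receptors to 0.15 for the ERK-responsive transcripts.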

How the data were processed

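The samples were grouped by the condition in their labels, 3 libraries each. The paper names a stranded TruSeq kit at RNA extraction, then oligo(dT) beads, and a TruSeq RNA Sample Prep Kit at the adapter step. It does not settle whether the libraries are stranded. For the deposited FPKM values, the authors filtered reads on base quality, mapped them with TopHat and ran Cufflinks 2.1.1 with Ensembl genes (GRCm38), with its bias and multi-read corrections. Whether Cufflinks was run with the strand setting is not given in the sources used here. No counts were used, and the authors' Cuffdiff test needs alignments and was not rerun.

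Genes averaging 1 FPKM or more were tested on log2(FPKM + 1) with limma 3.58.1 (R 4.3.3). All 3 groups shared a fit, eBayes used a trend, tests were two-sided, and p was adjusted by Benjamini-Hochberg over 11161 genes (threshold 0.05). The procedure was tested on simulated data. Depth was estimated from steps between low values, and fragment numbers derived from it are approximate. Tables and figures were made with Python 3.11.15, pandas 2.3.3, numpy 2.4.6 and matplotlib 3.10.9. Motifs were searched on both strands of RefSeq windows of 250 bases (GRCm38.p6), without those of chromosome 18.

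The genes, the pathway lists and the tests were chosen with earlier results of these data known. All 10 genes are named. Of each pathway list the text names the genes past the threshold in any comparison and, where there are none in a comparison, the gene with the smallest p, and for Dusp5 the 3 genes with the largest Pearson r. Ier3, Ier2, Myc and Spry1 were named after their values were seen. The result at 10 µg/ml against control for the list from the Ras adaptors to ERK is not reported here. The alternatives changed the pseudocount (0.1 or 0.01), the filter (none, or 5 FPKM), the scaling (quantile or median-of-ratios), the variance trend, the replicate block and the libraries fitted (only the 6 compared, or 1 left out at a time). Correcting for GC content and length by loess (span 0.5) was added after the data were seen.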

Additional observations from a re-analysis of the deposited data

Results flagged for a closer look

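Dusp6 lay on opposite sides of the control mean at the 2 doses, with all 3 low dose libraries above it and all 3 high dose libraries below it. The difference between the doses was -0.24 on the log2 scale (adjusted p = 0.193 in limma), which did not pass the threshold. At an unadjusted p under 0.05 in limma it was 1 of 3 such genes among the 9 tested, against 14.3% of all genes. A full separation of high from low dose values, as seen in Dusp6, occurred in 19.4% of all genes. The share of all genes with the doses on opposite sides of the control mean is not given here, so Dusp6 is not set apart from the background.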

How the results depend on the processing

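Of 513 values of the 9 genes under 19 alternatives, 485 kept their direction and their side of the threshold, 4 fell below it, 2 passed it and 22 reversed, the last all in Dusp7, Spred1, Spred2 and Spry2, whose differences were near 0. The cause of these changes was not tested. With the GC and length correction, Dusp7 was at -0.0197 at 100 µg/ml against control, -0.0435 at 10 µg/ml against control and 0.0238 between the doses, Spry2 at 0.00153 and Spred1 at 0.00538 at 10 µg/ml against control, and with quantile normalization Dusp7 was at 0.000616 between the doses. Leaving out libraries in turn gave, at 100 µg/ml against control, -0.0182 to 0.0411 for Dusp7 and -0.0842 to 0.178 for Spred2. At 10 µg/ml against control it gave -0.0224 to 0.0517 for Dusp7, -0.0479 to 0.0214 for Spry2 and -0.0310 to 0.0149 for Spred1, and between the doses -0.0447 to 0.0339 for Dusp7 and -0.145 to 0.117 for Spred2. The log2 fold change of Dusp5 between the doses passed with the GC and length correction (0.53, adjusted p = 0.0202 in limma), and over its alternatives the adjusted p ran from 0.0202 to 0.236.

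Of the 9 genes, 0 to 2 passed at 100 µg/ml against control when a library was left out, where 31 to 539 of all genes did. With only the 6 libraries compared 0 of the 9 passed, beside 22 of all genes. Between the doses 1 of the 9 passed with the GC and length correction, beside 321 of all genes. Leaving out libraries gave 0 to 2 ERK-responsive transcripts, 0 to 1 Ras to ERK genes and 0 to 2 receptors at 100 µg/ml against control, and 0 to 1 ERK-responsive transcripts and 0 to 1 receptors between the doses. At 100 µg/ml against control, the GC and length correction gave 1 other phosphatase, 1 Ras to ERK gene, 1 p38 or JNK gene, 5 ERK-responsive transcripts and 3 receptors. In that order 8, 21, 15, 12 and 10 genes were tested in the main fit. With the same correction calls over all genes rose from 236 to 803, so these counts are not read as particular to the lists. Ras to ERK genes were 1 with no filter and with median-of-ratios rescaling, p38 and JNK genes 1 at 5 FPKM and with quantile normalization, ERK-responsive transcripts 2 without the trend, and both ERK-responsive transcripts and receptors 0 with only the 6 libraries compared. Between the doses, ERK-responsive transcripts and receptors were 0 with the 6 libraries and 2 each with the GC and length correction, ERK-responsive transcripts were 2 with a pseudocount of 0.01 and without the trend, and receptors were 0 without the trend. Over all genes, 236 calls at 100 µg/ml against control became 803 with the GC and length correction, 22 with the 6 libraries and 31 to 539 with a library left out, and 95 calls between the doses became 321, 6 and 8 to 191. At 10 µg/ml against control 0 calls became 4 with no filter, 1 with the 6 libraries and 0 to 2 with a library left out. The share of higher calls at 100 µg/ml against control was 33.5%, and 52.3% with the GC and length correction. Between the doses it was 25.3%, and 41.1% with that correction.

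Whether the replicate numbers of the labels pair the libraries is not stated. After group means were removed, same-numbered libraries had correlations of -0.088 to 0.153, with 1 of 9 over 0.1. Those with different numbers had -0.166 to 0.143, with 2 of 18 over 0.1. With 3 libraries per group these values cannot decide whether the libraries are paired. With the number as a replicate block, Dusp5 stayed past the threshold at 100 µg/ml against control (adjusted p = 0.0429 in limma), ERK-responsive transcripts became 0 there, ERK-responsive transcripts and receptors became 0 between the doses, and calls over all genes became 106 and 13.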
